A study of Arabidopsis thaliana with 16 samples.

Results

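The genes described here are 9 members of the CBF cold pathway and its stress markers in *Arabidopsis*: the upstream regulator *ICE1*, the transcription factor genes *CBF1*, *CBF2* and *CBF3*, and the cold- and stress-responsive genes *COR413-PM1*, *KIN1*, *KIN2*, *RD29A* and *RD29B*. They were taken by their locus identifiers, as genes known for this pathway and with earlier results of these data known, out of 37336 loci in the count tables, of which 21676 had at least 1 count and 12697 were kept by the filter on low counts and tested. Of the 9 members, 4 passed this filter (*ICE1*, *RD29A*, *RD29B* and *COR413-PM1*), and the other 5 are described by their counts alone. The libraries came from seeds of 2 genotypes, 4 libraries for each of 4 groups. The groups were *dog1-3* seeds in NaCl, *dog1-3* seeds in mock, WT seeds in NaCl and WT seeds in mock. WT is the accession Col-0, and *dog1-3* carries the T-DNA insertion SALK_000867 in *DOG1*, a gene that controls seed dormancy. All seeds were used 1 day after harvest and imbibed for 72 h at 4°C on 1/2 MS agar, with 100 mM NaCl for the NaCl groups and no added salt for mock. Every seed was therefore kept cold and no group was imbibed at a warmer temperature, so that the 4 groups hold no comparison of cold with warm.

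In the CBF pathway, cold activates the bHLH protein ICE1, which binds E-boxes in promoters of the *CBF* (*DREB1*) genes and turns them on. The CBF proteins belong to the AP2/ERF family and bind the DRE/CRT element, whose core is CCGAC, in the promoters of cold-regulated genes. Many of these genes also respond to drought, salt and the hormone ABA through a separate route, in which bZIP factors of the ABF and ABI5 type bind the ABRE, whose core is ACGTG. *RD29A* is the textbook example of a promoter with both routes, whereas its neighbour *RD29B* is known mainly as an ABA-responsive gene. In seeds, ABA and ABI5 also drive the late maturation programme, in which proteins that protect dry tissue accumulate.

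Reads of 3'RNA-seq come from the 3′ ends of transcripts with a poly(A) tail, and levels are given as CPM, counts scaled to the size of the library, after edgeR's TMM correction for differences in composition. Total counts ranged from 1416354 to 3635844 per library. In all comparisons below, log2FC and adjusted p come from edgeR's quasi-likelihood test fitted to all tested genes in all 16 libraries, and a gene was called where the adjusted p was under 0.05 and the change exceeded 1.5-fold. *DOG1* itself was lower in *dog1-3* seeds, by a log2FC of -2.33 in mock and -2.94 in NaCl (standard error 0.16 each, adjusted p = 3.21e-15 and 1.26e-17, edgeR), as its labels state. The 5 seed storage and late maturation markers (*CRA1*, *CRU3*, *OLEO1*, *SESA3* and *EM1*) were detected in every library. Their summed level was 80900 to 103700 CPM in *dog1-3* NaCl, 66510 to 78080 CPM in *dog1-3* mock, 42000 to 61010 CPM in WT NaCl and 29590 to 49880 CPM in WT mock. It thus moved with both genotype and salt, and its part in the results below was not tested. The endosperm marker *EPR1* was at 22850 to 34230 CPM in *dog1-3* and 15070 to 24300 CPM in WT libraries, and the root and pollen markers reached at most 0.784 and 1.41 CPM. The summed level of 4 green tissue markers was 816 to 1001 CPM in *dog1-3* NaCl, 476 to 560.0 CPM in *dog1-3* mock, 555 to 633 CPM in WT NaCl and 363 to 448 CPM in WT mock. Nearly all of it came from *RBCS1A*, and the other 3 reached at most 3.25 CPM. It was higher in *dog1-3* than in WT in each treatment and in NaCl than in mock in each genotype, and its part in the results was not tested either.

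*ICE1* (AT3G26744, chr3:9832667-9835279 of TAIR10.1, minus strand) heads the pathway, and it is also known for roles in stomatal development and in the breakdown of the endosperm in developing seeds. It was well measured in all 16 libraries, with 178 to 516 counts. In NaCl its levels were 156, 154, 129.5 and 139.6 CPM in *dog1-3* seeds, against 118, 124, 138 and 143 CPM in WT seeds. In mock they were 139.5, 131, 151 and 154 CPM in *dog1-3* seeds, against 119, 133, 120.1 and 125 CPM in WT seeds. All 4 groups overlapped, and the 16 libraries spanned only 118 to 156 CPM. *ICE1* was not called in any comparison. For *dog1-3* against WT the log2FC was 0.15 in NaCl, with a standard error of 0.09 and an adjusted p of 0.216, and 0.21 in mock, with a standard error of 0.08 and an adjusted p of 0.0536 (edgeR). For NaCl against mock it was 0.02 in *dog1-3* (adjusted p = 0.922) and 0.07 in WT (adjusted p = 0.558), each with a standard error of 0.09. The means were 145 ± 12.5 CPM in *dog1-3* NaCl, 144 ± 10.6 CPM in *dog1-3* mock, 131 ± 11.97 CPM in WT NaCl and 124 ± 6.45 CPM in WT mock (SD, n = 4 each).

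The *CBF* genes, the direct targets of ICE1, were at or near 0 in these seeds. They lie in tandem on chromosome 4, all on the minus strand, as *CBF2* (AT4G25470, chr4:13015250-13016235), *CBF3* (AT4G25480, chr4:13018010-13019400) and *CBF1* (AT4G25490, chr4:13021780-13022996), and the cluster spans 7747 bases. *CBF1* and *CBF3* had 0 counts in each of the 16 libraries, that is 0 of 36944984 counts, which allows a level of up to 0.0812 CPM over all libraries. Within a group, 0 counts allow up to 0.390 CPM in *dog1-3* NaCl, 0.359 CPM in *dog1-3* mock, 0.386 CPM in WT NaCl and 0.2285 CPM in WT mock. These limits cover counting error only.

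*CBF2* was the only *CBF* gene of the cluster with any reads, 11 in all. It had 0, 1, 0 and 1 counts in *dog1-3* NaCl libraries, against 0, 1, 0 and 1 in *dog1-3* mock. In WT it had 0, 0, 1 and 0 counts in NaCl libraries, against 1, 2, 1 and 2 in mock. WT mock, which was sequenced most deeply, was the group in which every library had a *CBF2* read. Summed over its 4 libraries, *CBF2* was at 0.457 CPM in WT mock, with an exact Poisson interval at 95% of 0.168 to 0.995 CPM. That interval overlaps those of 0.0315 to 0.939 CPM in *dog1-3* NaCl, 0.0290 to 0.865 CPM in *dog1-3* mock and 0.00326 to 0.717 CPM in WT NaCl. A difference in *CBF2* between groups was not detectable at this depth. The coding sequences of the 3 *CBF* genes are 85.0% to 86.7% identical, but none of the 50-base stretches in their last 500 transcribed bases occurs elsewhere in the genome. Reads of 50 bases that match exactly there could therefore be told apart.

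**Figure D1:**
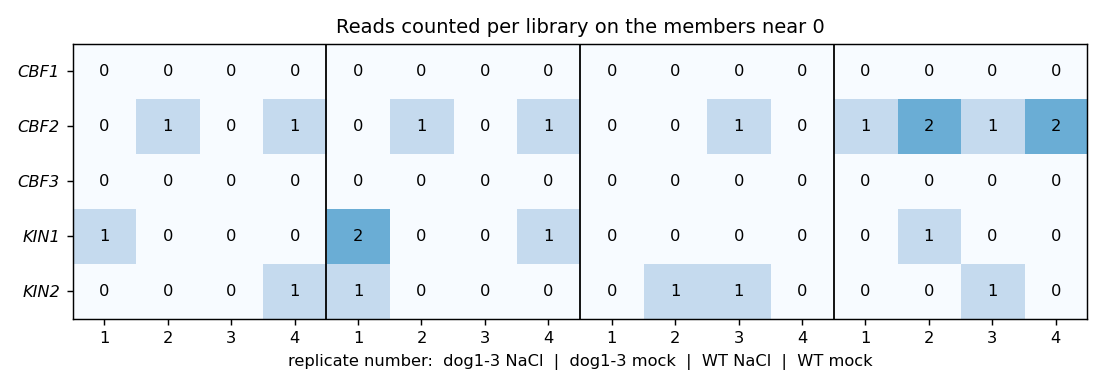
Reads counted on the 5 members near 0 in each library, with genes down the side and the 4 libraries of *dog1-3* NaCl, *dog1-3* mock, WT NaCl and WT mock from left to right. No cell exceeds 2 counts, the rows of *CBF1* and *CBF3* are 0 throughout, and the 4 WT mock libraries hold 6 of the 11 *CBF2* counts.

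*KIN1* and *KIN2*, which encode small hydrophilic proteins and are known as cold- and ABA-inducible genes of vegetative tissue, were also near 0. *KIN1* (AT5G15960, chr5:5209717-5210826, plus strand) and *KIN2* (AT5G15970, chr5:5211719-5212743, plus strand) are tandem copies 892 bases apart. *KIN1* had 1, 0, 0 and 0 counts in *dog1-3* NaCl libraries, against 2, 0, 0 and 1 in *dog1-3* mock. In WT it had 0 counts in each of the 4 NaCl libraries, against 0, 1, 0 and 0 in mock. *KIN2* likewise had 5 counts in all, with at most 1 in a library. Both genes stood at 0.135 CPM over all libraries, and even their summed counts stayed under the filter, so neither was tested. The coding sequences are shown because their likeness bears on whether reads could be assigned. They are of 201 bases each, from the RefSeq annotation of TAIR10.1, with the 10 positions at which they differ in capitals:

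KIN1: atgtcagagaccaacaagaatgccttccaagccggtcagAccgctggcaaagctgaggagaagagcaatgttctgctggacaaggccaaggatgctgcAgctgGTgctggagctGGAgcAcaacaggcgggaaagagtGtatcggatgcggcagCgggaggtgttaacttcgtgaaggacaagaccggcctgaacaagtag
KIN2: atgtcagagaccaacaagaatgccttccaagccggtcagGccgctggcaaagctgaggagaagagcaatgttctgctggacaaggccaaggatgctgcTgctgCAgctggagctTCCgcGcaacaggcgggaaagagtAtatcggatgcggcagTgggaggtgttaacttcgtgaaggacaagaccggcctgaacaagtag

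The other 191 of 201 positions are identical, and the difference is much larger beyond the stop codon, where 54.6% of aligned positions are identical. Since 3'RNA-seq reads fall at the transcript end, only 1 of 451 stretches of 50 bases from the 3′ end of *KIN1* (0.222%) and 10 of 451 from that of *KIN2* (2.22%) occur in the other gene. How the counting treated reads that match 2 places is not given in the sources used here. For exact matches of 50 bases within these 3′ ends, only these stretches would be affected. Shorter reads and reads with mismatches were not examined.

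The remaining members, *RD29B*, *RD29A* and *COR413-PM1*, differed between groups. *RD29B* (AT5G52300, chr5:21237021-21239531) and *RD29A* (AT5G52310, chr5:21240717-21243644) are neighbours on the plus strand, 1185 bases apart, and encode hydrophilic proteins that accumulate under water deficit. Their coding sequences are 56.0% identical, and neither shares a 50-base stretch of its 3′ end with another locus. *COR413-PM1* (AT2G15970, chr2:6949851-6951192, plus strand) encodes a cold-regulated multispanning protein of the plasma membrane.

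The 250 bases before the annotated start of each of these 3 genes are shown because the binding elements of the 2 routes differ between them. They come from the TAIR10.1 genome, on the plus strand, and capitals mark CCGAC and ACGTG on either strand (an ACGTG on the other strand reads CACGT). The windows are chr5:21236771-21237020 for *RD29B*, chr5:21240467-21240716 for *RD29A* and chr2:6949601-6949850 for *COR413-PM1*:

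RD29B: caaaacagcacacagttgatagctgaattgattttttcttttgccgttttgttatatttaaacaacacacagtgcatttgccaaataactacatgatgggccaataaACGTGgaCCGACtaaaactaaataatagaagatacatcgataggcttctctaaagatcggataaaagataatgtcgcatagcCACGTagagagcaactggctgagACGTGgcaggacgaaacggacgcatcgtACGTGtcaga
RD29A: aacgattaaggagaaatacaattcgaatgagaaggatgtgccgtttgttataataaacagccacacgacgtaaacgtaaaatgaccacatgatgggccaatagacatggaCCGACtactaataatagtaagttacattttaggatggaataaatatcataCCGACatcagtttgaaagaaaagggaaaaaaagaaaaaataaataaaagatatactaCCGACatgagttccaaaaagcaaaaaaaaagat
COR413-PM1: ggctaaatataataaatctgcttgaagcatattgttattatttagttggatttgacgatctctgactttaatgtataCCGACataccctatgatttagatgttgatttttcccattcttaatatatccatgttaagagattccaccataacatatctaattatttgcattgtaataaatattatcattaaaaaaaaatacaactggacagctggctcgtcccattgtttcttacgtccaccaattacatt

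Within its window *RD29A* had 3 matches to CCGAC, with first bases at -140, -90 and -33 from the start, and 0 matches to ACGTG. The *RD29B* window held 4 matches to ACGTG (at -143, -61, -38 and -10) and 1 to CCGAC at -136. *COR413-PM1* had 1 CCGAC at -173 and 0 ACGTG. Among 27443 windows of the same length, 12.0% held at least 1 CCGAC and 0.197% at least 3, while 22.9% held at least 1 ACGTG and 1.34% at least 4. *KIN1* and *KIN2* each had 1 ACGTG, 1 E-box (CANNTG) and 0 CCGAC. *CBF2* had 1 CACGTG at -102, which counts as an ACGTG on both strands and as an E-box. Another E-box of *CBF2* lay at -175, so that its window held 2. The windows of *RD29A*, *RD29B* and *COR413-PM1* held 1, 3 and 2 E-boxes. The windows of *ICE1*, *CBF1* and *CBF3* held none of the 3 motifs, and 55.3% of all windows held at least 1 CANNTG. As annotated, *CBF1*, *CBF2* and *CBF3* span 1217, 986 and 1391 bases, with 642, 651 and 651 coding bases. Their annotated starts therefore need not lie at the same distance from the coding sequence. A match is a stretch of letters and was not tested as a binding site. Bases further upstream or beyond the annotated start were not searched. A window without a motif therefore does not mean that the promoter lacks it, for *RD29A*, *CBF1* and *CBF3* as for the others.

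**Figure D2:**
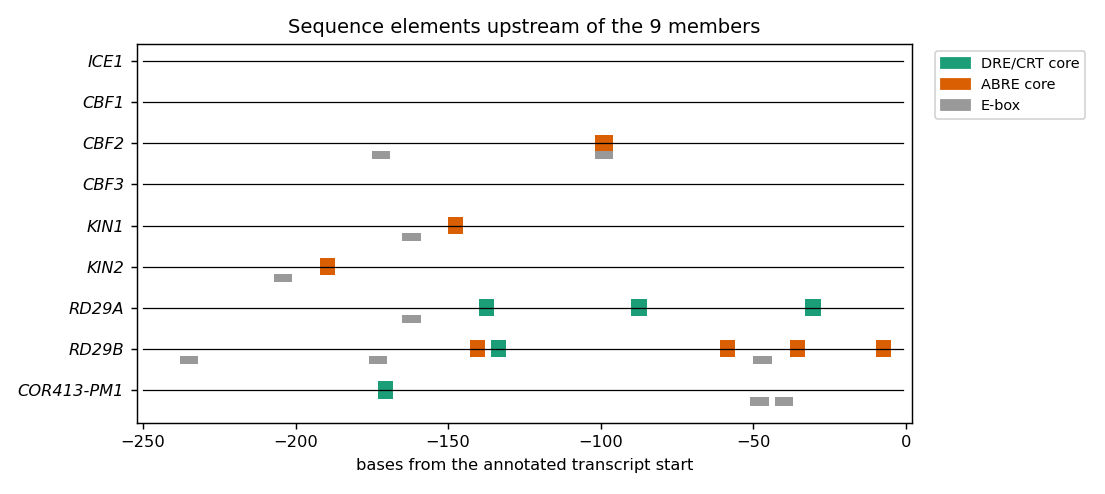
Matches to the DRE/CRT core, the ABRE core and the E-box in the 250 bases before the annotated start of each of the 9 members, with the position in bases from the start on the horizontal axis and 1 line per gene. In these windows *RD29A* carries 3 DRE/CRT cores and *RD29B* 4 ABRE cores, and those of *ICE1*, *CBF1* and *CBF3* hold none of the motifs. Bases outside the windows were not searched.

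Without salt, *RD29B*, *RD29A* and *COR413-PM1* were higher in *dog1-3* than in WT seeds. Of the 9 members, 3 were called up and 0 down, and 4 were tested, against 9.94% of all tested genes called up in this comparison and 18.4% called in either direction. *RD29B* was at 431, 486, 538 and 462 CPM in *dog1-3* seeds, against 101, 115, 134 and 113 CPM in WT seeds. The lowest *dog1-3* library was more than 3 times the highest WT library. Its log2FC was 2.04 (standard error 0.10, adjusted p = 2.63e-19, edgeR). *COR413-PM1* was at 83.6, 85.1, 83.0 and 88.7 CPM in *dog1-3* seeds, against 14.2, 14.4, 21.2 and 15.97 CPM in WT seeds. The 4 *dog1-3* libraries lay within a narrow band far above all WT libraries, and the log2FC of 2.35 was the largest of the members (standard error 0.12, adjusted p = 4.86e-18, edgeR).

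*RD29A* differed less, with 38.9, 42.2, 33.2 and 43.0 CPM in *dog1-3* seeds, against 15.6, 25.2, 17.97 and 14.3 CPM in WT seeds. Mock replicate 2 of WT stood above the other WT libraries, but the groups did not overlap. The log2FC was 1.11 (standard error 0.15, adjusted p = 7.20e-08, edgeR). For each of the 3 genes an exact permutation test over 4 libraries against 4, two-sided, gave p = 0.0286, the smallest that this design allows. Groups without overlap were found for 16.1% of all tested genes with *dog1-3* higher. In bulk seeds, a higher CPM can come from more RNA per cell or from a larger share of cells or tissue that express the gene, and these cannot be told apart.

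In NaCl the same 3 members were higher in *dog1-3* than in WT, again 3 of 9 with 4 tested, against 8.16% of all tested genes called up and 15.7% in either direction. *RD29B* reached 660.0, 649, 588 and 456 CPM in *dog1-3* seeds, against 198, 195, 211 and 220.0 CPM in WT seeds, and replicate 4 was the lowest of the *dog1-3* libraries. Its log2FC was 1.52 (standard error 0.10, adjusted p = 1.93e-15, edgeR). *RD29A* was at 57.2, 46.9, 42.1 and 51.0 CPM in *dog1-3* seeds, against 25.7, 20.2, 25.1 and 27.5 CPM in WT seeds, so that the groups were well apart. The log2FC of *RD29A* was 1.01 (standard error 0.15, adjusted p = 1.71e-06, edgeR). *COR413-PM1* was at 79.3, 71.7, 64.8 and 64.3 CPM in *dog1-3* seeds, against 16.5, 10.8, 21.6 and 19.5 CPM in WT seeds. Its log2FC was 2.06 (standard error 0.15, adjusted p = 4.36e-14, edgeR). The groups did not overlap for any of the 3 (exact permutation test, two-sided, p = 0.0286 each), as for 14.0% of all tested genes with *dog1-3* higher.

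**Figure D3:**
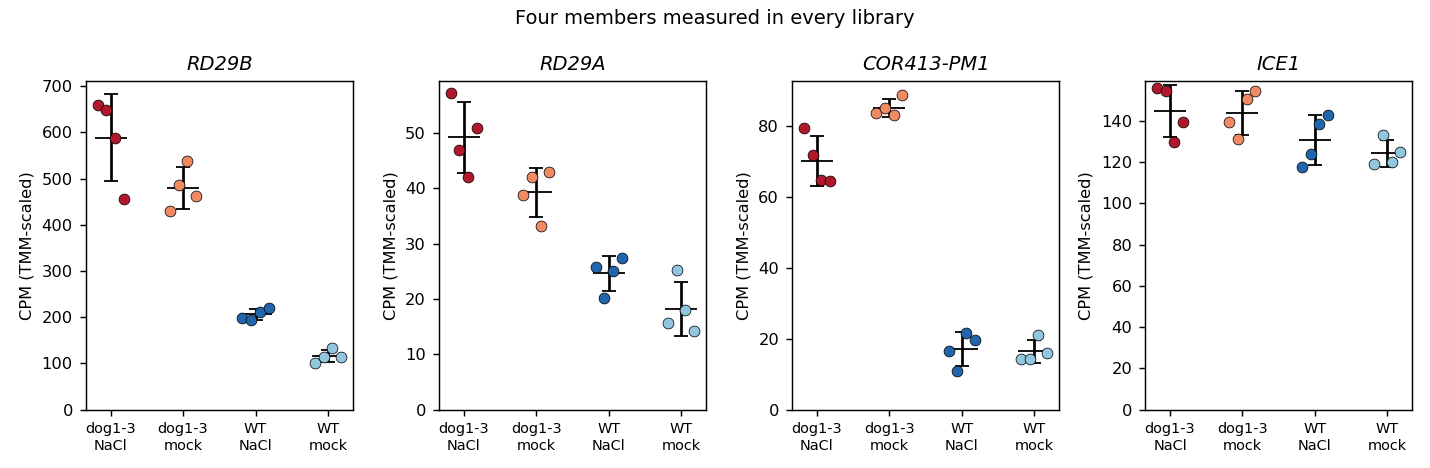
Levels of the 4 tested members in CPM (TMM-scaled) on axes that start at 0, with *dog1-3* NaCl, *dog1-3* mock, WT NaCl and WT mock from left to right. Points are libraries, and bars are the mean and SD (n = 4). *RD29B*, *RD29A* and *COR413-PM1* sit higher in both *dog1-3* groups than in both WT groups, and *ICE1* overlaps throughout.

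In WT seeds *RD29B* rose in NaCl. It was the 1 member called, against 9.46% of all tested genes called up by NaCl in WT and 16.5% in either direction. Its libraries stood at 198, 195, 211 and 220.0 CPM in NaCl, against 101, 115, 134 and 113 CPM in mock, with all NaCl libraries above all mock libraries. The means were 206 ± 11.6 CPM in NaCl and 116 ± 13.6 CPM in mock (SD, n = 4 each). The log2FC was 0.82 with a standard error of 0.10 (adjusted p = 3.03e-08, edgeR), and the exact two-sided permutation test gave p = 0.0286. Groups without overlap were found for 16.4% of all tested genes with NaCl higher.

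*RD29A* averaged 24.6 ± 3.10 CPM in NaCl and 18.3 ± 4.87 CPM in mock in WT seeds (SD, n = 4 each), and 2 of its 4 NaCl libraries exceeded every mock library. Its log2FC of 0.42 (standard error 0.16, adjusted p = 0.0375, edgeR) was under the fold limit, and the exact permutation test gave p = 0.0857. That *RD29A* was not called rested on 1 library, since without replicate 2 of WT mock the log2FC was 0.62 with an adjusted p of 0.00198, past both thresholds. *COR413-PM1* averaged 17.1 ± 4.69 CPM in NaCl and 16.4 ± 3.27 CPM in mock (SD, n = 4 each). Its libraries overlapped, and the log2FC of 0.03 had a standard error of 0.17 (adjusted p = 0.924, edgeR). The mock reactions went into 1 pool and the NaCl reactions into another before the second cDNA strand was made, so that salt and library pool cannot be told apart here or in *dog1-3*.

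In *dog1-3* seeds 0 of the 9 members were called for NaCl against mock, with 4 tested, against 14.7% of all tested genes called in either direction (38.6% had an unadjusted p under 0.05). At an unadjusted p under 0.05, 3 of the members differed, and DESeq2 also called 0. *RD29B* averaged 588 ± 93.5 CPM in NaCl and 479 ± 45.4 CPM in mock (SD, n = 4 each). With 3 of 4 NaCl libraries above every mock library, its log2FC of 0.30 (standard error 0.09, adjusted p = 0.0121, edgeR) was under the fold limit. *RD29A* averaged 49.3 ± 6.42 CPM in NaCl and 39.3 ± 4.45 CPM in mock (SD, n = 4 each). Its groups overlapped, and the log2FC was 0.32 with a standard error of 0.14 (adjusted p = 0.0808, edgeR). *COR413-PM1* stood apart in sign, at 70.0 ± 7.05 CPM in NaCl and 85.1 ± 2.55 CPM in mock (SD, n = 4 each). Each of the 4 NaCl libraries was under the lowest mock library, as for 12.7% of all tested genes, and the exact two-sided permutation test gave p = 0.0286. Its log2FC of -0.27 (standard error 0.11, adjusted p = 0.0673, edgeR) did not pass adjustment over all genes.

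**Figure D4:**
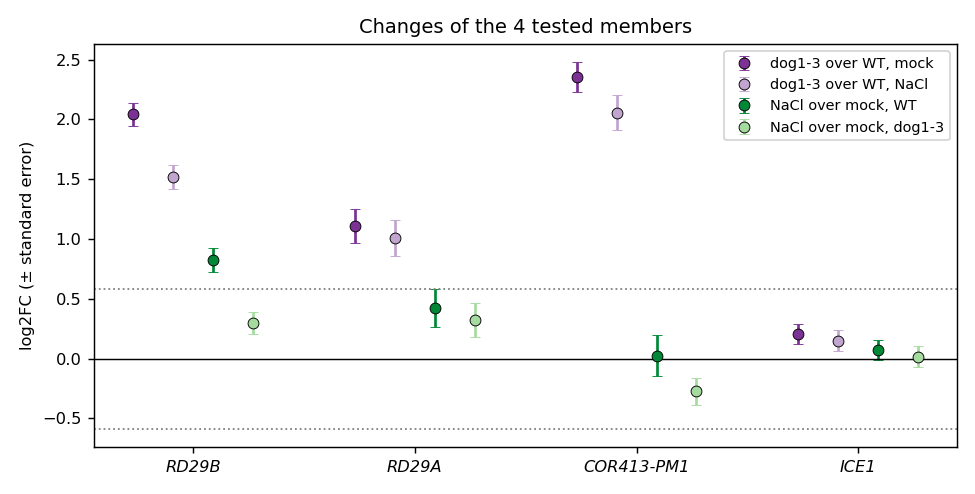
Changes of the 4 tested members as log2FC with standard errors, in the 4 comparisons: *dog1-3* over WT in mock and in NaCl, and NaCl over mock in WT and in *dog1-3*. Dotted lines mark the 1.5-fold limit. For *RD29B*, *RD29A* and *COR413-PM1* both genotype comparisons lie past the limit, and only the salt comparison of *RD29B* in WT does among the comparisons of NaCl with mock.

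Whether the change in NaCl differed between the 2 genotypes was tested as an interaction, which passed for 1 of all tested genes (0.00788%) and for 0 of the 9 members, with 4 tested. *RD29B* came nearest among the members, with an interaction log2FC of -0.52 (standard error 0.14), that is a smaller increase in *dog1-3*. Its unadjusted p was 0.000437 and its adjusted p 0.382 (edgeR), and an unadjusted p under 0.05 was found for 6.51% of all tested genes. DESeq2 called 0 members. Without the filter on low counts the same interaction of *RD29B* was -0.51, with an adjusted p of 0.0338. The interaction log2FC was -0.30 for *COR413-PM1* (adjusted p = 0.866), -0.10 for *RD29A* (adjusted p = 0.977) and -0.05 for *ICE1* (adjusted p = 0.978).

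The order of the groups was therefore alike for *RD29B* and *RD29A*, with *dog1-3* NaCl highest, then *dog1-3* mock, WT NaCl and WT mock. For *RD29A* the NaCl and mock libraries overlapped within each genotype, and for *RD29B* they overlapped in *dog1-3* and not in WT. For *COR413-PM1* the order was *dog1-3* mock, *dog1-3* NaCl and then the WT groups, which overlapped each other. The low end of both *dog1-3* groups lay above the high end of both WT groups for all 3 genes.

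Because *RD29A* and *RD29B* are neighbours, the number of *RD29B* counts per *RD29A* count was also taken within each library, a comparison chosen after the values were seen. In mock the ratio was 11.1, 11.53, 16.2 and 10.7 in *dog1-3* seeds, against 6.48, 4.55, 7.47 and 7.92 in WT seeds. In NaCl it was 11.53, 13.8, 14.0 and 8.95 in *dog1-3* seeds, against 7.70, 9.63, 8.41 and 8.0 in WT seeds. The ratio was thus higher in *dog1-3*, without overlap in mock and with 1 *dog1-3* library inside the WT range in NaCl. On the log2 scale the ratio differed by 0.92 between genotypes in mock (exact permutation test, two-sided, p = 0.0286, adjusted over 4 comparisons 0.0762) and by 0.50 in NaCl (exact p = 0.0571, adjusted 0.0762). For NaCl against mock it differed by -0.04 in *dog1-3* (exact p = 0.943) and by 0.38 in WT (exact p = 0.0571, adjusted 0.0762). None of the 4 differences passed adjustment.

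The genes whose levels followed each member most closely were sought among 9318 other genes with a mean of at least 10 CPM, by Pearson's r of log2(CPM + 1) over the 16 libraries, which share the 4 group differences. *RD29B* was most like AT1G19530 (r = 0.987), the glucuronidase gene *GUS2* (0.987) and *ERD7* (0.986), a gene named for early induction by dehydration. AT1G19530 was at 820 CPM in *dog1-3* NaCl, 601 CPM in *dog1-3* mock, 261 CPM in WT NaCl and 136 CPM in WT mock, the order of *RD29B*. *RD29A* was most like *GBF3* (r = 0.970), which encodes a bZIP factor that binds the G-box, then AT4G27130 (0.966) and AT5G65470 (0.964). *COR413-PM1* was most like AT1G16850 (r = 0.981), *CBSX3* (0.978) and *ECP63* (0.978), and *ECP63* encodes a late embryogenesis abundant (LEA) protein. *ICE1* followed other genes less closely, with r of at most 0.878, for AT2G16595. Between *RD29A* and *RD29B* r was 0.929 over the 16 libraries but 0.0842 once the group means were taken out, and between *RD29B* and *COR413-PM1* it was 0.920 and 0.524. These correlations are descriptions of 16 libraries in 4 groups.

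Around the members, 3 lists of pathway genes were compared. The first held 23 genes, regulators of *CBF* expression or activity together with *CBF4* and other relatives of the *CBF* genes. Of these, 16 were tested, all of them regulators, and the other 7 had at most 15 counts in any library. In *dog1-3* against WT, 1 of them rose in mock, *MPK3* (a MAP kinase, log2FC 0.63), and 1 fell, the clock gene *CCA1* (log2FC -1.07), against 9.94% of all tested genes called up and 18.4% in either direction. With library sizes alone as the scaling *MPK3* was not called. In NaCl *CCA1* was the 1 regulator called for *dog1-3* against WT (15.7% of all tested genes in either direction), where it fell by 1.13 on the log2 scale (standard error 0.20, adjusted p = 1.88e-05, edgeR), with 11.6 ± 0.164 CPM in *dog1-3* and 25.6 ± 4.01 CPM in WT (SD, n = 4 each). *MPK3* had a log2FC of 0.5842 there (adjusted p = 0.000444, edgeR), just under the fold limit, and was called up with DESeq2, with RLE scaling and with a lower or no filter on low counts. In NaCl against mock, *SIZ1*, the SUMO ligase that acts on ICE1, rose in *dog1-3* (log2FC 0.69, standard error 0.15, adjusted p = 0.000394, edgeR) together with the calmodulin-binding activator *CAMTA1* (0.64), against 7.53% of all tested genes called up. Scaling by library size alone gave 0 regulators up and 1 down (*BZR1*) in that comparison. In WT *CAMTA1* (0.65) and *CAMTA2* (0.71) rose in NaCl and *BZR1* fell (log2FC -0.82, standard error 0.25, adjusted p = 0.00838, edgeR), a brassinosteroid factor that shares its 3′ end with an opposite-strand gene, against 9.46% of all tested genes called up and 16.5% in either direction. *SIZ1* had a log2FC of 0.49 in WT (adjusted p = 0.00242, edgeR), under the fold limit. With library sizes alone as the scaling, *CAMTA1* was not called in WT and *CAMTA2* was. *CAMTA2* was not called without replicate 1 of WT NaCl (log2FC 0.55, adjusted p = 0.0591).

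Several other regulators did not reach an adjusted p under 0.05 in any of the 4 comparisons. Among them were the *ICE1* paralogue *ICE2*, with means between 25.0 and 30.0 CPM in the 4 groups, and the ubiquitin ligase *HOS1* (27.3 to 34.9 CPM). The kinase *OST1* (5.42 to 6.88 CPM) and the *CBF2* activator *CAMTA3* (23.2 to 30.1 CPM) were also among them. *CAMTA3* overlaps a gene on the opposite strand. *CBF4*, a drought-responsive relative of the cluster, had 0 to 4 counts per library and was not tested, though without the filter on low counts it was called up for NaCl against mock in WT. It averaged 0.196 ± 0.392 CPM in *dog1-3* NaCl, 0.131 ± 0.262 CPM in *dog1-3* mock, 1.06 ± 0.849 CPM in WT NaCl and 0.161 ± 0.190 CPM in WT mock (SD, n = 4 each). The median log2FC of the tested regulators was 0.05 for *dog1-3* against WT in NaCl and 0.04 in mock, and 0.16 and 0.21 for NaCl against mock in *dog1-3* and in WT, beside medians of all tested genes between -0.0179 and -0.0019.

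The second list held 24 targets of CBF and other cold-responsive genes, of which 14 were tested. In NaCl 7 of them rose and 0 fell in *dog1-3*, and 7 rose and 1 fell (*CSP1*) in WT, against 7.53% and 9.46% of all tested genes called up. In either direction 14.7% and 16.5% of all tested genes were called. Scaling by library size alone gave 3 up and 1 down (*CSP1*) in *dog1-3*, and 4 up and 1 down in WT. The median log2FC of the list for NaCl against mock was 0.585 in *dog1-3* and 0.60 in WT, and for *dog1-3* against WT it was 0.275 in NaCl and 0.15 in mock. The dehydrin gene *ERD14* rose most, at 9.97 ± 2.33 CPM in NaCl and 0.922 ± 0.643 CPM in mock in *dog1-3* seeds (SD, n = 4 each), with a log2FC of 3.27 ± 0.47 (standard error; adjusted p = 1.16e-06, edgeR). In WT seeds *ERD14* was at 5.90 ± 3.09 CPM in NaCl and 1.37 ± 0.796 CPM in mock (log2FC 1.97, standard error 0.41, adjusted p = 0.000204). Its counts were low, with 0 to 20 per library, and it passed the filter on low counts only through NaCl libraries, where it was high. In a fit of the 2 WT groups alone *ERD14* was not tested, and 6 of 13 tested genes of the list rose in NaCl. *RAP2.1*, an AP2 repressor that CBF proteins activate, rose in NaCl by 0.73 in *dog1-3* and 1.101 in WT on the log2 scale. *dog1-3* had higher levels of 4 genes in both treatments, *LTI30*, *RAP2.1*, *ZAT10* and *RCI2A*, against 8.16% of all tested genes called up in NaCl and 9.94% in mock. With library sizes alone as the scaling, *RAP2.1* was not called in NaCl. For *RCI2A*, a small membrane protein gene, these were 239 ± 19.3 CPM in *dog1-3* and 96.5 ± 15.1 CPM in WT in NaCl, and 169 ± 9.38 CPM in *dog1-3* and 66.1 ± 4.06 CPM in WT in mock (SD, n = 4 each). The zinc finger gene *ZAT10* differed between genotypes by a log2FC of 1.21 in NaCl and 1.59 in mock. *GRP7* was lower in *dog1-3* in both treatments and *CSP1* in mock, and both encode RNA-binding proteins. Of all tested genes, 15.7% in NaCl and 18.4% in mock were called between genotypes in either direction. *RCI2A* overlaps genes on the opposite strand.

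Several of the best known cold genes were, like the *KIN* and *CBF* genes, at or near 0. Of the 10 genes of this list that were not tested, none had more than 8 counts in a library and 1, *GOLS3*, had 0 in all. *COR15A*, which encodes a chloroplast protein, had 4 counts in all libraries together, *ERD10* also 4, and *COR47* 20. *COR15B* had 19, but 92.9% of the stretches in its last 500 bases also belong to AT2G42520 on the opposite strand, so that its reads are uncertain. *COR15A*, whose window before the start holds 2 matches to CCGAC, averaged 0.196 ± 0.392 CPM in *dog1-3* NaCl, 0.143 ± 0.286 CPM in *dog1-3* mock, 0.125 ± 0.250 CPM in WT NaCl and 0.0931 ± 0.186 CPM in WT mock (SD, n = 4 each). *RD29A*, with 3 such matches, had between 42 and 122 counts in each library.

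The third list held 23 genes of the ABA and osmotic stress response, of which 18 were tested. *dog1-3* seeds had more of 11 of them in NaCl and less of 1, and more of 14 in mock and less of 1, against 8.16% and 9.94% of all tested genes called up. In either direction 15.7% and 18.4% of all tested genes were called. Scaling by library size alone reduced these to 5 and 12 called up, with 1 down each. *RD26*, with 4 to 14 counts per library, was 1 of the 14 in mock. In a fit of the 2 mock groups alone, 13 of 17 tested genes of the list rose, without *RD26*. The median log2FC of the list was 0.65 in NaCl and 0.82 in mock. The largest differences were those of *OBAP1A*, an oil body protein gene (log2FC 1.71 in NaCl and 1.84 in mock, standard error 0.12 each), and of *LEA7* (1.54 and 1.64, standard error 0.10 each). *OBAP1A* reached 1648 ± 245 CPM in *dog1-3* and 504 ± 108 CPM in WT in NaCl (SD, n = 4 each). The phosphatase gene *ABI2*, a negative regulator of ABA signalling, was higher in *dog1-3* by 1.34 in NaCl and 0.80 in mock, whereas its relative *ABI1* was lower in mock (log2FC -0.73). *P5CS1*, which encodes an enzyme of proline synthesis, was lower in *dog1-3* in NaCl (log2FC -1.38, standard error 0.43, adjusted p = 0.0126, edgeR), but not called without replicate 3 of *dog1-3* NaCl (log2FC -1.13, adjusted p = 0.0653). It had only 2 to 22 counts per library, and in a fit of the 2 NaCl groups alone it was not tested.

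For NaCl against mock, 4 genes of this list were called up and 0 down in *dog1-3* (*RAB18*, AT3G02480, *ABI2* and *HAB1*) and 4 up and 0 down in WT (*RAB18*, *RD26*, AT3G02480 and *HAB1*), against 7.53% and 9.46% of all tested genes called up. Scaling by library size alone gave 2 up in *dog1-3* (*RAB18* and *ABI2*) and 3 in WT (without AT3G02480). *RD26* had only 4 to 14 counts per library and was not called in WT with DESeq2. In a fit of the 2 WT groups alone, 3 of 17 tested genes of the list rose, and *RD26* was not among them. The median log2FC was 0.30 in *dog1-3* and 0.42 in WT. *RAB18*, a dehydrin that marks the ABA response, was at 19470 ± 2404 CPM in *dog1-3* NaCl, 10200 ± 1799 CPM in *dog1-3* mock, 11020 ± 2790 CPM in WT NaCl and 4794 ± 1165 CPM in WT mock (SD, n = 4 each). Its log2FC for NaCl against mock was 0.93 in *dog1-3* and 1.20 in WT, and for *dog1-3* against WT it was 0.82 in NaCl and 1.09 in mock (standard error 0.15 each). The 5 genes that were not tested had at most 18 counts in a library, and *RD20* had 0. Many genes of this list, *RAB18*, *LEA7*, *LEA4-5*, *OBAP1A* and *ABI5* among them, are known from maturing seeds as well as from stressed plants, and *RAB18*, *P5CS1*, *LEA7* and *OBAP1A* overlap genes on the opposite strand.

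**Figure D5:**
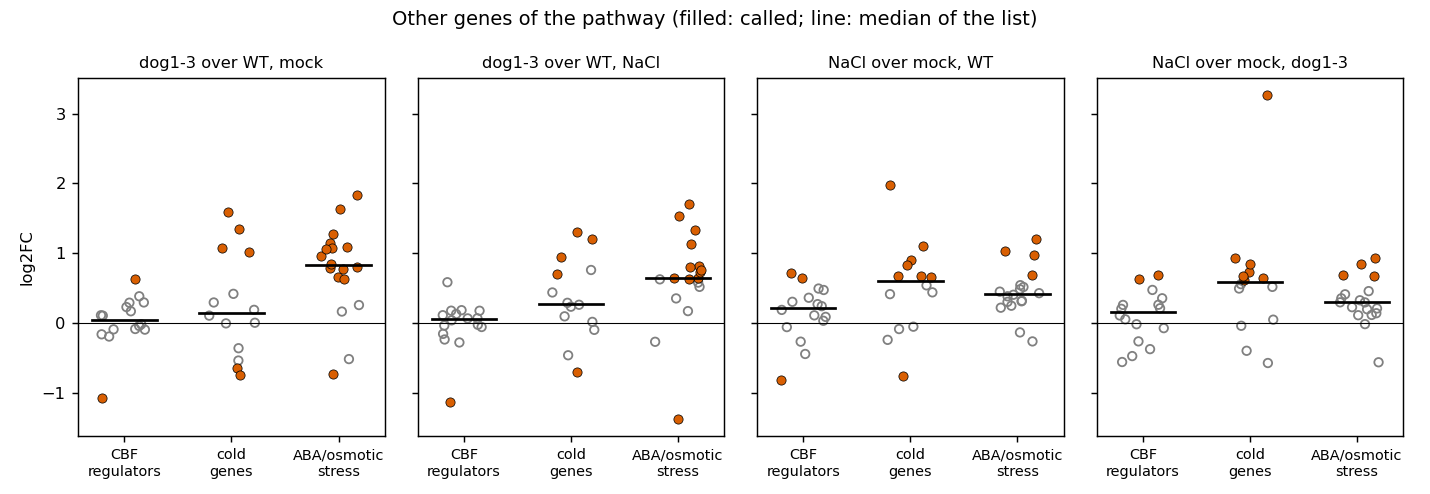
Changes of the tested genes of the 3 lists as log2FC, 1 panel per comparison, with *CBF* regulators (16 genes), cold genes (14) and ABA and osmotic stress genes (18) from left to right. Filled points were called, and the bar is the median of the list. The stress list has its highest medians in the 2 comparisons of *dog1-3* with WT, at 0.82 in mock and 0.65 in NaCl.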

How the data were processed

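Total RNA of seeds was reverse transcribed with barcoded oligo(dT) primers, and the authors deposited unnormalized read counts per locus for each of the 16 libraries. Their processing notes name STAR 2.7.8a, DESeq2 and the build TAIR10; the counting program, its strand setting and the handling of reads with several matches or of molecular identifiers are not given in the sources used here. The labels gave each library's group and replicate number. From the deposited counts, 37051 loci, the 9 members among them, matched locus tags of the TAIR10.1 annotation, used for names, positions and overlaps. The counts were fitted with edgeR 4.0.16 (limma 3.58.1, R 4.3.3): filterByExpr with a minimum count of 10, TMM scaling, and the quasi-likelihood F test in 1 model with a mean for each of 4 groups, with Benjamini-Hochberg adjustment over all tested genes. Standard errors are the log2FC divided by the square root of F. The scripts were tested on simulated data. Permutation tests used the mean log2(CPM + 1), 4 libraries against 4. Promoter windows are the 250 bases upstream of the annotated start, and likeness of coding sequences was taken from nucleotide alignments.

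The members and the lists were chosen with earlier results of these data known. Named were all members, in each list the 4 called genes with the largest change and *COR15A*, *COR15B*, *COR47*, *ERD10*, *RAB18*, *CBF4*, *ICE2*, *OST1*, *HOS1* and *CAMTA3*, and for each tested member the 3 most correlated genes; other list genes were named after their values were seen, where a count was 5 or fewer. Alternatives were DESeq2 1.42.0, other scalings and filters, removal of the 20 highest genes, fits of 2 groups, the replicate number as a block, no fold limit and each library left out. No 2 libraries of a group were copies, with a chi-square per degree of freedom of 1.51 to 6.16 between their counts. Libraries of 1416354 to 3635844 counts limit the precision, and the detection limit was set at 3 counts.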

Additional observations from a re-analysis of the deposited data

How the results depend on the processing

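The calls of *RD29B*, *RD29A* and *COR413-PM1* for *dog1-3* against WT held under every alternative run, with 3 members called throughout, also with each library left out. For NaCl against mock in WT, 1 to 2 members were called with a library left out, and 2, *RD29A* added, without replicate 2 of WT mock (log2FC 0.62, adjusted p = 0.00198, edgeR) or with no fold limit. Over all alternatives of this comparison the adjusted p of *RD29A* ranged from 0.00198 to 0.1455 (edgeR or DESeq2). With no fold limit *RD29B* was also called in *dog1-3* (1 member), and all genes called numbered 4498 in WT, 3662 in *dog1-3*, 4492 for *dog1-3* against WT in mock and 3635 in NaCl, against 2099, 1865, 2334 and 1993 with it. For the interaction, 1 member (*RD29B*, -0.51) passed without the low-count filter, where 21 genes passed in all, and 0 with each library left out; over all genes, 0 to 3 passed with a library left out.

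With library sizes alone as the scaling, the median log2FC over all genes became -0.12 for salt in WT, -0.19 for salt in *dog1-3*, -0.18 for *dog1-3* in mock and -0.25 for *dog1-3* in NaCl, and the upregulated share of the calls to 35.0%, 21.7%, 29.6% and 19.7%, from 57.2%, 51.3%, 54.1% and 52.0%. Relative to these shifts the uncalled values near 0 moved as well. *ICE1* turned to -0.0466 for salt in WT, -0.16 for salt in *dog1-3* and -0.08 for *dog1-3* in NaCl, and *COR413-PM1* to -0.0943 for salt in WT (-6e-04 without the filter). *RD29B* for salt in *dog1-3* had a log2FC of 0.12 and an adjusted p of 0.321. *RAP2.1* fell under the fold limit in *dog1-3* for salt (0.55) and for genotype in NaCl (0.47), and *SIZ1* for salt in *dog1-3* (0.52). With libraries left out, uncalled values also changed sign, in the ranges -0.0948 to 0.19 for *COR413-PM1* with salt in WT, -0.0316 to 0.0678 for *ICE1* with salt in *dog1-3* and -0.30 to 0.0087 for the interaction of *RD29A*.

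Same-numbered libraries of 2 groups correlated weakly, at -0.065 to 0.095, and in 7 of 16 such pairs the own number correlated best among the 4 libraries of the other group. For NaCl against mock the correlations were 0.004 to 0.095, and the own number was best for replicates 2, 3 and 4 in WT and 1 and 2 in *dog1-3*. Between genotypes it was best for replicate 2 in mock and replicate 4 in NaCl. Whether the replicate numbers pair the libraries was not tested further. The replicate block changed no call of a member, with 3 members called for *dog1-3* against WT in each treatment, 1 for salt in WT and 0 in *dog1-3*, and 0 instead of 1 gene passed the interaction.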
